A study of Mus musculus with 6 samples.

Results

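The genes described here are 10 ligands and receptors by which retinal ganglion cells (RGCs) can signal to astrocytes and blood vessels: Pdgfa, Pdgfb, Pdgfc, Pdgfra and Pdgfrb of the platelet-derived growth factor (PDGF) family, and Vegfa, Vegfb, Vegfc, Kdr and Flt1 of the vascular endothelial growth factor (VEGF) family. They were found by gene symbol among the 24060 genes of the count table, and all 10 were among the 16449 genes with enough reads to be tested. The members were chosen from their difference between the ages in these same samples, so their values are given as a description without a test. RNA was sequenced from RGCs of C57BL/6 mice at embryonic day 18 (E18) and postnatal day 5 (P5), 3 samples at each age, with no transgene or treatment named at either age. Retinas were dissociated with papain, macrophages were removed on antibody-coated dishes, and the remaining cells were held on dishes coated with an antibody against CD90 (Thy1), a surface protein of RGCs. The samples are numbered 1, 3 and 4 at E18 and 6, 8 and 9 at P5, and nothing says that they came from separate animals, so the tests measure the spread between these samples.

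PDGF ligands act as dimers on 2 receptor tyrosine kinases, Pdgfra and Pdgfrb. In the developing retina, Pdgfa made by RGCs is known to act on Pdgfra of astrocytes, which spread over the inner surface of the retina ahead of the vessels, and Pdgfb is known to draw pericytes to vessels through Pdgfrb. Vegfa is induced by low oxygen through the hypoxia-inducible factors (HIF) and drives vessel growth through the receptor Kdr (VEGFR2), while Flt1 (VEGFR1) binds Vegfa tightly and signals weakly.

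The count of reads on genes ranged from 81213639 to 114512853 per library, and levels are given as CPM, reads scaled to the size of the library, of which 1 stood for 83.0 to 112 reads. The summed level of 14 RGC markers was 8236 to 9425 CPM at E18 and 8815 to 9925 CPM at P5. Most of that sum was Nefl, Gap43 and Stmn2. Nefl was at 1815 ± 277 CPM at E18 and 2914 ± 550 CPM at P5, and Gap43 at 1773 ± 153 CPM and 1248 ± 162 CPM. Single markers differed in both directions, with 3 higher and 5 lower at E18 at an adjusted p under 0.05. Thy1, on which the cells were held, was at 247 ± 56.2 CPM at E18 and 553 ± 120 CPM at P5. Isl1 was at 557 ± 52.0 CPM at E18 and 260 ± 51.0 CPM at P5. The share of RGCs in each library was not tested. E18 replicates 1 and 3 stood apart from the other 4 libraries in genes of other cell types. The 11 amacrine and horizontal cell markers summed to 126 and 232 CPM in these libraries against 35.1 to 50.2 CPM in the others, and the 10 markers of progenitors and dividing cells summed to 241 and 55.8 CPM against 7.65 to 19.8 CPM. The most abundant markers of these lists were Tfap2b, at 47.5 and 119 CPM in E18 replicates 1 and 3 and at most 1.62 CPM elsewhere, and Top2a, at 88.7 and 22.5 CPM and at most 8.81 CPM elsewhere. The name of the column used for E18 replicate 1 holds 2 and 5 besides 1, and whether it pools several preparations is not said.

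The promoters of Pdgfa, Vegfa and Kdr are shown because these genes had the largest differences between the ages among the 8 members whose RefSeq promoter window was read, which runs from 250 bases before to 50 bases after the start site. Each is read 5′ to 3′ on its gene's strand, here the minus strand, from build GRCm38.p6. Capitals mark 3 motifs searched on both strands, the GC box bound by Sp factors (GGGCGG or CCGCCC), the core bound by HIF (ACGTG or CACGT) and the core bound by ETS factors (CGGAAG or CTTCCG).
Pdgfa, chr5:138994895-138995194: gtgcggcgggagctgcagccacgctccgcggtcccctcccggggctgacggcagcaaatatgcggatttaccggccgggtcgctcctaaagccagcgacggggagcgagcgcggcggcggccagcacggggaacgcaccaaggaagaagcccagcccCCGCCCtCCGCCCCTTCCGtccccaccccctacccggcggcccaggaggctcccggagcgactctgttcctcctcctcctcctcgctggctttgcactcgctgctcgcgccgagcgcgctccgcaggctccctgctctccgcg
Vegfa, chr17:46032328-46032627: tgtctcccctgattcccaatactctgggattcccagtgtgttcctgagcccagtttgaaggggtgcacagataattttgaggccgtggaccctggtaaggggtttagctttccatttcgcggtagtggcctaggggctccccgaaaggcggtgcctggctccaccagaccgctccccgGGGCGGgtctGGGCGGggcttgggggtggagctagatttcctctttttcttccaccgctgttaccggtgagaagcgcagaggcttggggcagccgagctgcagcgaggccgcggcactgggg
Kdr, chr5:75978406-75978705: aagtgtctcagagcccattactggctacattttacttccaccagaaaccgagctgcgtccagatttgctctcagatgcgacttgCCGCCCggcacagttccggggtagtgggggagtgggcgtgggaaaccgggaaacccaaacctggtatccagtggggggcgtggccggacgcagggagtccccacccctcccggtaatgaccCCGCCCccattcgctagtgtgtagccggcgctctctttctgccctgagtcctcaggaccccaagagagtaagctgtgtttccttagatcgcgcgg

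Each of the 3 windows held 2 GC boxes, which began 93 and 86 bases before the start site in Pdgfa, 72 and 62 bases before it in Vegfa, and 166 and 45 bases before it in Kdr. The ETS core was found once, 80 bases before the start of Pdgfa and directly next to a GC box without sharing a base with it. Of the 8 windows, 6 held a GC box, 1 the ETS core and 0 the HIF core, while among all 32851 windows of the table the shares were 35.7%, 16.9% and 19.6%. The windows of Pdgfa, Vegfa and Kdr were 73.3%, 62.0% and 60.7% G or C, against a median of 52.7% over all windows. These matches describe the letters of the windows, and nothing was measured on them here. Pdgfa and Vegfa each have 2 windows in the table, of which the one farther upstream is shown.

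Pdgfa and Pdgfb, the PDGF ligands of the pair of classical dimers, were lower at E18 than at P5. Pdgfa was at 5.92, 5.17 and 7.01 CPM in E18 replicates 1, 3 and 4 and at 36.7, 38.4 and 39.1 CPM in P5 replicates 6, 8 and 9. Every P5 library was far above every E18 library, and the replicates of each age lay close together. The means were 6.03 ± 0.926 CPM at E18 and 38.1 ± 1.26 CPM at P5 (SD, n = 3 each), a level 6.31-fold higher at P5. This is a log2 fold change of E18 over P5 of -2.66 with a standard error (SE) of 0.14.

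Pdgfb was at 2.65, 2.4 and 3.40 CPM at E18 and at 11.6, 12.4 and 20.1 CPM at P5. The ages did not overlap, and P5 replicate 9 stood above the other P5 libraries. Its mean CPM was 5.21-fold higher at P5, with a log2 fold change of -2.38 (SE 0.25). Pdgfa and Pdgfb thus differed between the ages in the same direction and by a similar size, and the ratio of Pdgfa to Pdgfb per kilobase of exon was 2.75 to 2.98 at E18 and 2.60 to 4.2 at P5, ranges that overlap. Endothelial cells also make Pdgfb, and the sum of 12 endothelial markers was 3.73 to 5.28 CPM at E18 and 13.1, 9.09 and 15.3 CPM in P5 replicates 6, 8 and 9. Most of that sum was Egfl7, Tek, Pecam1 and Esam. The part of endothelial cells in the level of Pdgfb was not tested. In bulk RNA, fewer cells that express a gene and less RNA of it in each cell cannot be told apart, here and in every value that follows.

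Pdgfc, a ligand that is cleaved outside the cell before it acts on Pdgfra, was near the limit of what was counted. It was at 0.627, 0.178 and 0.133 CPM at E18 and at 0.203, 0.234 and 0.351 CPM at P5, which stands for 12 to 52 reads per library. The ages overlapped, and the highest value was that of E18 replicate 1. With all libraries its log2 fold change was 0.23 (SE 0.58), and it was -0.74 without E18 replicate 1.

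The receptors of these ligands were low. Pdgfra, the receptor on astrocytes and on oligodendrocyte precursors, was at 3.03, 3.22 and 2.87 CPM at E18 and at 2.58, 1.94 and 2.45 CPM at P5. The ages did not overlap, but the gap between the lowest E18 and the highest P5 library was smaller than the range within either age, and the log2 fold change was 0.39 (SE 0.20). The 8 astrocyte markers summed to 34.1 to 40.9 CPM at E18 and 21.8 to 29.0 CPM at P5, and most of that sum was Slc1a2, a glutamate transporter also made by some neurons. Of 5 markers tested, Slc1a2 alone passed, with a log2 fold change of 0.58 (adjusted p = 0.00787). Aldh1l1, an astrocyte enzyme, was at 2.91 ± 0.172 CPM at E18 and 2.19 ± 0.801 CPM at P5 (adjusted p = 0.251), near the level of Pdgfra, and S100b had a log2 fold change of -1.10 (adjusted p = 0.0542). The defining astrocyte genes Gfap and Pax2 were at no more than 0.147 CPM in any library. The sum of 8 markers of oligodendrocyte precursors was lower at E18, at 88.9 to 112 CPM against 141 to 152 CPM, nearly all from Lhfpl3. Of 4 markers tested, 0 rose and 2 fell at E18, Lhfpl3 and Olig1, the latter at no more than 0.237 CPM. Olig2, with too few reads to be tested, went the other way, at 1.22, 0.357 and 0.0552 CPM at E18 and at most 0.0203 CPM at P5. C1ql1 was at 0.639, 1.20 and 0.0663 CPM at E18 and 0.194 ± 0.0492 CPM at P5, without passing the threshold. Both Olig2 and C1ql1 were highest in E18 replicates 1 and 3, where the amacrine, horizontal, progenitor and dividing-cell markers were also high. The part of those cells in Olig2 and C1ql1 was not tested. Sox10 was at no more than 0.110 CPM. The part of astrocytes and oligodendrocyte precursors in the level of Pdgfra was not tested.

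Pdgfrb, the receptor of pericytes, was at 0.759, 0.169 and 0.121 CPM at E18 and at 0.0677, 0.122 and 0.308 CPM at P5, which stands for 6 to 63 reads. The ages overlapped and E18 replicate 1 was again the highest library. Its log2 fold change of 1.05 (SE 0.77) became -0.18 without E18 replicate 1. The 10 markers of pericytes and smooth muscle summed to 4.18 to 7.32 CPM at E18 and 5.49 to 7.26 CPM at P5, with 8 of the 10 under 1 CPM in all libraries. At E18 most of that sum was Notch3. At P5 Notch3 was at 2.38, 2.79 and 2.35 CPM in replicates 6, 8 and 9, and much of the rest was Rgs5. The other markers that passed the test went against Notch3. Of 6 markers tested, Notch3 was higher at E18, at 4.17 ± 1.37 CPM against 2.51 ± 0.248 CPM (log2 fold change 0.73, adjusted p = 0.0438), and 3 were lower. Rgs5, a defining pericyte gene, was at 0.0964, 0.107 and 0.133 CPM at E18 and at 2.44, 1.47 and 3.08 CPM at P5, without overlap (log2 fold change -4.36, SE 0.37, adjusted p = 0.000166). Abcc9 (log2 fold change -1.76, adjusted p = 0.0483) and Vtn (-1.27, adjusted p = 0.0183) were lower too. On leaving out single libraries the adjusted p of Notch3, Abcc9 and Vtn reached 0.168, 0.150 and 0.0770, and that of Rgs5 no more than 0.00200. The part of pericytes in the level of Pdgfrb was not tested.

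**Figure D1:**
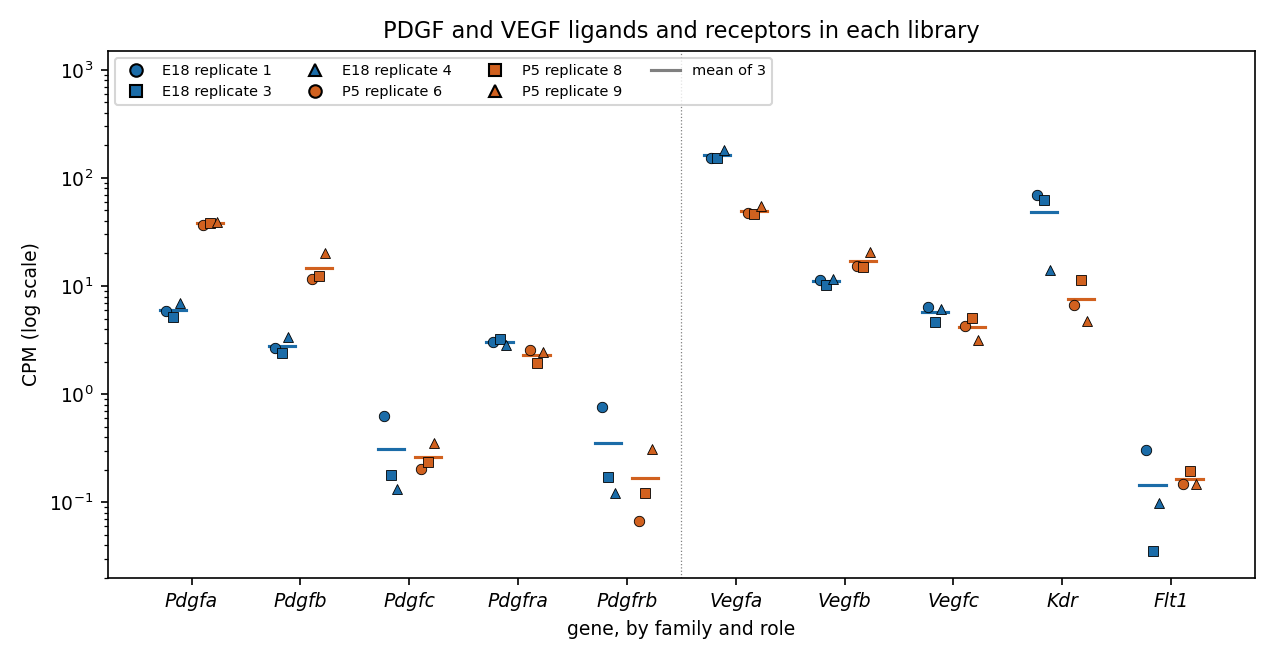
Level of each of the 10 genes in each library, in CPM on a log scale, with PDGF genes left of the dotted line and VEGF genes right of it; symbols are libraries, blue for E18 and orange for P5, and bars are means of 3. Pdgfa and Pdgfb lie lower at E18, Vegfa and Kdr higher, and Pdgfc, Pdgfrb and Flt1 lie under 1 CPM with overlapping ages.

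Vegfa, the main ligand of vessel growth, differed in the other direction from Pdgfa. It was at 151, 154 and 182 CPM at E18 and at 47.6, 46.2 and 54.6 CPM at P5. Every E18 library was above every P5 library, with means of 162 ± 16.9 CPM at E18 and 49.5 ± 4.5 CPM at P5, a level 3.28-fold higher at E18. The log2 fold change was 1.71 (SE 0.11).

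Vegfb, a ligand of Flt1 linked to lipid use and cell survival, was at 11.4, 10.2 and 11.5 CPM at E18 and at 15.2, 15.1 and 20.5 CPM at P5. The ages did not overlap and the difference was smaller than that of Vegfa and opposite to it, with a log2 fold change of -0.62 (SE 0.15). Vegfc, the ligand of Flt4 in lymphatic growth, was at 6.41, 4.63 and 6.09 CPM at E18 and at 4.23, 5.11 and 3.20 CPM at P5. Its ages overlapped, since P5 replicate 8 lay above E18 replicate 3, and the log2 fold change was 0.45 (SE 0.22).

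Kdr, the signalling receptor of Vegfa, which is known on endothelium and also on retinal progenitors and neurons, was at 69.5, 62.9 and 14.1 CPM at E18 and at 6.70, 11.3 and 4.79 CPM at P5. E18 replicates 1 and 3 were far above all other libraries, and E18 replicate 4 was just above the highest P5 library. The means were 48.8 ± 30.3 CPM at E18 and 7.60 ± 3.34 CPM at P5, and the log2 fold change was 2.68 (SE 0.55), similar in size to that of Pdgfa but with a wider error.

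The E18 libraries with high Kdr were those with high markers of amacrine and horizontal cells and of progenitors and dividing cells. Without E18 replicates 1 and 3, a setting chosen after seeing the data, the log2 fold change of Kdr was 0.90, that of Vegfa 1.89 and that of Pdgfa -2.43. This setting leaves E18 replicate 4 as the only library of its age. The part of amacrine, horizontal, progenitor and dividing cells in the level of Kdr was not tested. The endothelial sum given beside Pdgfb was lower at E18, where Kdr was higher. Of the 12 genes 8 were under 1 CPM in all libraries and 6 were tested, of which 0 rose and 3 fell at E18. Cdh5, a cadherin of endothelial junctions, was at 0 in 3 of the libraries and at no more than 0.0609 CPM in the others, and Egfl7, the most abundant of the 12, was at 1.96 ± 0.401 CPM at E18 and 5.39 ± 2.42 CPM at P5. Cldn5, at no more than 0.217 CPM in any library, had a log2 fold change of 0.52 (adjusted p = 0.637). The part of endothelial cells in the level of Kdr was not tested.

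Flt1, the other Vegfa receptor, was at 0.301, 0.0357 and 0.0994 CPM at E18 and at 0.147, 0.193 and 0.149 CPM at P5, which stands for 4 to 25 reads. The ages overlapped, with both the highest and the lowest library at E18. Its log2 fold change was -0.21 (SE 0.66), and it was 0.29 without E18 replicate 3. Per kilobase of exon, Kdr was 212 to 2636 times as abundant as Flt1 at E18 and 48.2 to 87.5 times at P5.

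**Figure D2:**
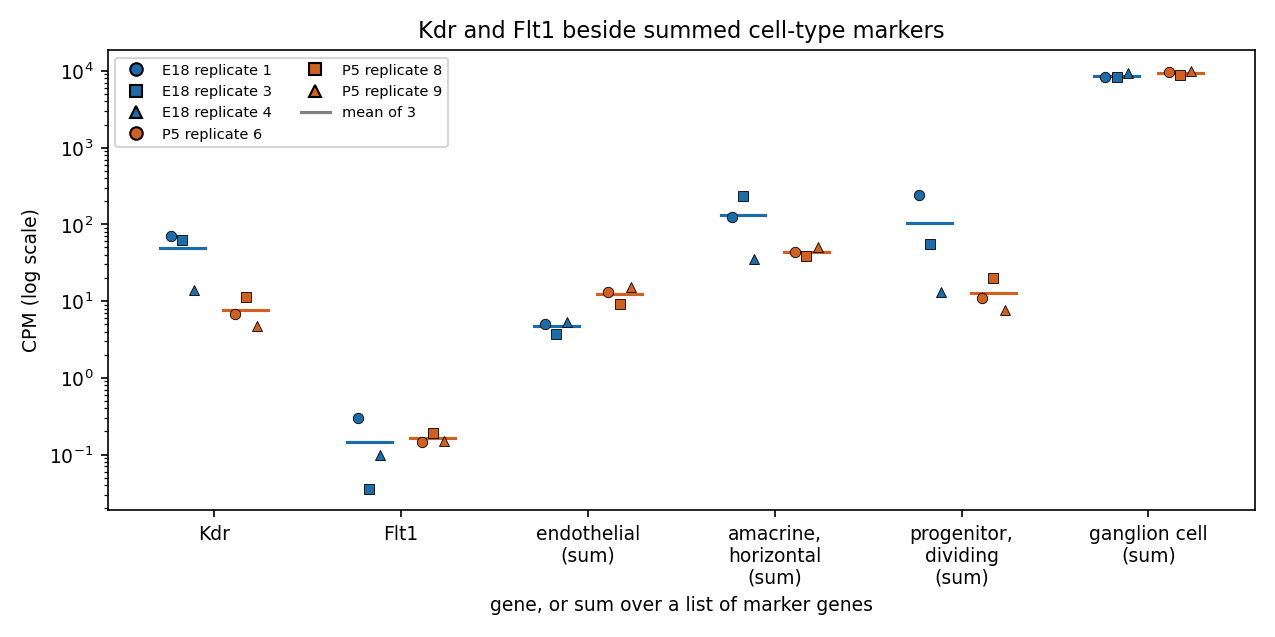
Kdr and Flt1 beside the summed CPM of 4 lists of marker genes in each library, on a log scale; blue symbols are E18, orange symbols P5, and bars are means of 3. Kdr and the amacrine, horizontal, progenitor and dividing-cell sums are high in E18 replicates 1 and 3, while the endothelial sum is lower at E18.

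Of the 10 genes, 5 were past an adjusted p of 0.05, while 43.4% of all genes tested were. The 2 higher at E18 were Vegfa and Kdr, where 20.8% of genes tested were higher, and the 3 lower were Pdgfa, Pdgfb and Vegfb, where 22.5% were lower. The ages did not overlap for 6 of the 10, against 56.1% of all genes tested, and nothing is read from these counts because the members were chosen on the same contrast. The median log2 fold change of all genes tested was 0.00.

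The order of the genes changed between the ages when levels were taken as CPM per kilobase of exon, which allows different genes to be compared. At E18, Vegfa led with 37.9 CPM per kilobase, followed by Vegfb at 6.87, Kdr at 5.41, Vegfc at 2.33, Pdgfa at 1.93, Pdgfb at 0.677, Pdgfra at 0.303, Pdgfrb at 0.0639, Pdgfc at 0.0614 and Flt1 at 0.0108. Vegfa stood clear of Vegfb, whereas Vegfb and Kdr, Kdr and Vegfc, Vegfc and Pdgfa, and Pdgfrb and Pdgfc overlapped in their libraries. At P5, Pdgfa was at 12.2 CPM per kilobase, Vegfa at 11.5 and Vegfb at 10.5, and these neighbours in the order overlapped in their libraries. Below them came Pdgfb at 3.53, Vegfc at 1.71, Kdr at 0.841, Pdgfra at 0.232, Pdgfc at 0.0516, Pdgfrb at 0.0303 and Flt1 at 0.0121, of which only the last 3 overlapped with a neighbour. With the length of the longest transcript in place of all exons, Pdgfa at P5 was at 18.5 CPM per kilobase and Vegfa at 14.3, without overlap between their libraries, and Pdgfa at E18 was at 2.93, above Vegfc at 2.33. That length also moved Kdr to 8.24 at E18 and 1.28 at P5, and Flt1 to 0.0211 and 0.0236, without a change of their places in the order.

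The ratio of Vegfa to Pdgfa per kilobase of exon was 18.6, 21.6 and 18.9 in E18 replicates 1, 3 and 4 and 0.945, 0.875 and 1.02 in P5 replicates 6, 8 and 9. Vegfa was thus in large excess over Pdgfa in every E18 library and near equal to it in every P5 library. The near equality at P5 depends on the length used. With the longest transcript, Pdgfa at 18.5 CPM per kilobase was above Vegfa at 14.3 at P5, without overlap. Within the VEGF ligands, the ratio of Vegfa to Vegfb per kilobase was 4.99 to 5.9 at E18 and 0.997 to 1.18 at P5.

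**Figure D3:**
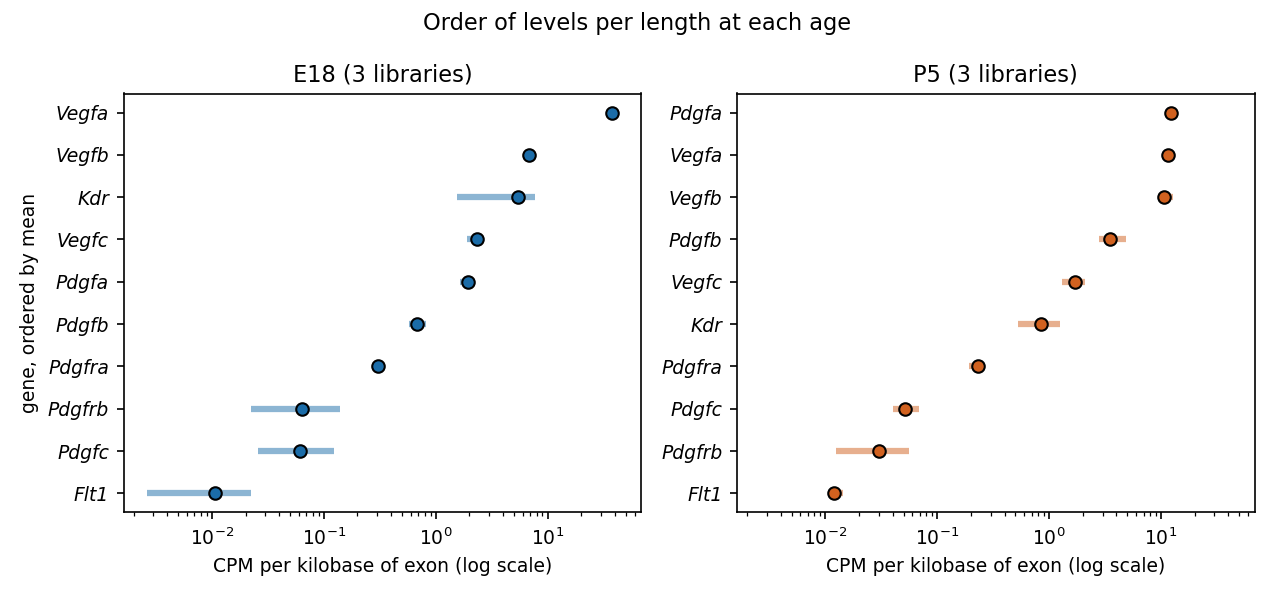
Mean CPM per kilobase of exon (points, log scale) with the range of the 3 libraries (bars) for each gene, ordered by mean at E18 (left) and at P5 (right). Vegfa leads at E18 with 37.9 and lies beside Pdgfa and Vegfb at P5.

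Positions are those of GENCODE genes on mm10. Pdgfa lies at chr5:138976014-138997370 on the minus strand, Pdgfb at chr15:79995874-80014977 on the minus strand, Vegfa at chr17:46016993-46032369 on the minus strand and Vegfb at chr19:6982473-6987651 on the minus strand. Kdr (chr5:75932827-75978458, minus strand) and Pdgfra (chr5:75152292-75198215, plus strand) lie on chromosome 5, and Flt1 lies on the same chromosome at chr5:147561604-147726011 on the minus strand. Exons of Pdgfa share 813 bases, or 26.1% of their length, with an antisense gene, 6330403L08Rik. Whether the counting used strand is not stated. Without strand, reads of Pdgfa and of this antisense gene could not be told apart there. Antisense genes share 2.89% of the exons of Pdgfc and up to 4.55% of those of Pdgfra.

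Genes that followed the same pattern over the 6 libraries were sought among 9724 genes of 10 CPM or more on average, by Pearson's correlation of log2 CPM, as a description without a test. The libraries fall into the 2 ages, so any gene with tight replicates and a difference in the right direction correlates highly. For Pdgfa, the 5 highest were Ppp1r14c, Ctdspl, Sntg1, Gabrg1 and Snx13, with correlations of 0.997 to 0.999. Of these, the GABA receptor subunit Gabrg1 had the largest difference, with 4.65 ± 0.210 CPM at E18 and 53.9 ± 4.08 CPM at P5. For Vegfa, the 5 highest were Plekha6, Ngfr, Pfkl, Suv420h2 and Cdkn1c, with correlations of 0.994 to 0.999. Ngfr, the p75 neurotrophin receptor, was at 57.6 ± 7.38 CPM at E18 and 18.03 ± 0.673 CPM at P5, and the cell cycle inhibitor Cdkn1c at 59.1 ± 1.70 CPM and 8.04 ± 1.25 CPM.

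Beyond the members, the other ligands and receptors of both families were tested with edgeR's quasi-likelihood test, with p-values adjusted over all genes tested by the Benjamini-Hochberg method. Of 7 in the table, 6 were tested, 0 rose and 2 fell at E18, with a median log2 fold change of -0.14, beside 43.4% called of all genes tested. Nrp2, a co-receptor of VEGF and semaphorin receptors, was at 89.9, 96.3 and 99.2 CPM at E18 and at 164, 166 and 165 CPM at P5. It was lower at E18 in every library, by a log2 fold change of -0.80 (SE 0.08, adjusted p = 0.000336). Flt4, the receptor of Vegfc, was lower as well, from 0.847 ± 0.478 CPM at P5 to 0.184 ± 0.0286 CPM at E18 (log2 fold change -2.20, SE 0.45, adjusted p = 0.00536). In P5 replicates 6, 8 and 9 Flt4 was at 0.733, 0.437 and 1.37 CPM, and the 12 endothelial markers summed to 13.1, 9.09 and 15.3 CPM. Both Flt4 and that sum were lower in every E18 library than in any P5 library, and the part of endothelial cells in the level of Flt4 was not tested. Nrp1, a co-receptor of Kdr and the most abundant of the list, was at 254 ± 22.2 CPM at E18 and 253 ± 38.1 CPM at P5, with a log2 fold change of 0.00 and a 95% interval from -0.28 to 0.28 (adjusted p = 0.985). Pgf, a ligand of Flt1, was at 1.58 ± 0.164 CPM and 1.48 ± 0.336 CPM (adjusted p = 0.781). Pdgfd, at 0.136 CPM at E18 and 0.163 CPM at P5, and Pdgfrl, at 0.333 and 0.212 CPM, did not pass the threshold, with adjusted p of 0.595 and 0.321. Figf, which encodes the ligand VEGF-D, had too few reads to be tested, at 0.0564 CPM or less.

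Of 8 enzymes and partners that process or release the ligands, 7 were tested, 1 rose and 1 fell at E18, with a median log2 fold change of 0.18 and the same 43.4% called among all genes. Plau, the urokinase that frees matrix-bound growth factors, was higher at E18, at 2.29 ± 0.151 CPM against 0.784 ± 0.281 CPM (log2 fold change 1.54, SE 0.30, adjusted p = 0.00403). Pcsk5, a proprotein convertase, was lower at E18, at 2.02 ± 0.653 CPM against 5.44 ± 0.669 CPM (log2 fold change -1.43, SE 0.27, adjusted p = 0.00363). The other convertases had log2 fold changes of 0.18 for Furin, -0.29 for Pcsk6 and 0.23 for Pcsk7, with adjusted p of 0.446, 0.638 and 0.140. Plat, which cleaves Pdgfc, was at 21.3 ± 1.82 CPM at E18 and 18.8 ± 1.34 CPM at P5 (adjusted p = 0.232), and Adamts3, which cleaves Vegfc, at 5.6 ± 1.33 and 4.38 ± 0.342 CPM (adjusted p = 0.184). Ccbe1, a partner of Adamts3, had too few reads to be tested. Without P5 replicate 8, Pcsk7 passed the threshold with an adjusted p of 0.0117.

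Of 33 genes tested that relay signals inside the cell from receptor tyrosine kinases, 10 rose, 4 fell and 19 did not pass the test, with a median log2 fold change of 0.13. The 14 of 33 called are close to the 43.4% called among all genes, so their number is no result about the relay, and 4 rose and 3 fell without P5 replicate 6. Gab1, a docking protein of the receptors, was at 22.6, 23.8 and 21.1 CPM at E18 and at 7.30, 12.6 and 4.59 CPM at P5. It was higher in all E18 libraries, with a log2 fold change of 1.46 (SE 0.31, adjusted p = 0.00596). Plcg1, the phospholipase that binds activated Kdr and Pdgfra, was at 233 ± 7.16 CPM at E18 and 131 ± 22.9 CPM at P5 (log2 fold change 0.84, SE 0.12, adjusted p = 0.00136). The adaptor Shc1 was higher at E18 by a log2 fold change of 0.69 (SE 0.14, adjusted p = 0.00487). The 3 largest falls at E18 were those of the kinase Map2k1 (log2 fold change -0.65, adjusted p = 0.0263), the lipid kinase subunit Pik3cb (-0.54, adjusted p = 0.0173) and the Src-family kinase Yes1 (-0.45, adjusted p = 0.0202). These falls narrowly missed the threshold on leaving out any of several libraries: Map2k1 without 4 of the 6 (adjusted p of 0.0718 to 0.0789), Pik3cb without E18 replicate 1 or 3 (0.0665 and 0.0513), and Yes1 without E18 replicate 1, E18 replicate 3 or P5 replicate 6 (0.0805, 0.0568 and 0.0586). Their log2 fold changes kept their sign, ranging from -0.87 to -0.42 for Map2k1, from -0.63 to -0.39 for Pik3cb and from -0.57 to -0.39 for Yes1. Calls over all genes fell too on leaving out any library but P5 replicate 8, from 7135 to between 4575 and 5861. The number of genes called fell from 14 to 9, 5, 7 and 9 without E18 replicate 1, E18 replicate 3, P5 replicate 6 and P5 replicate 9.

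**Figure D4:**
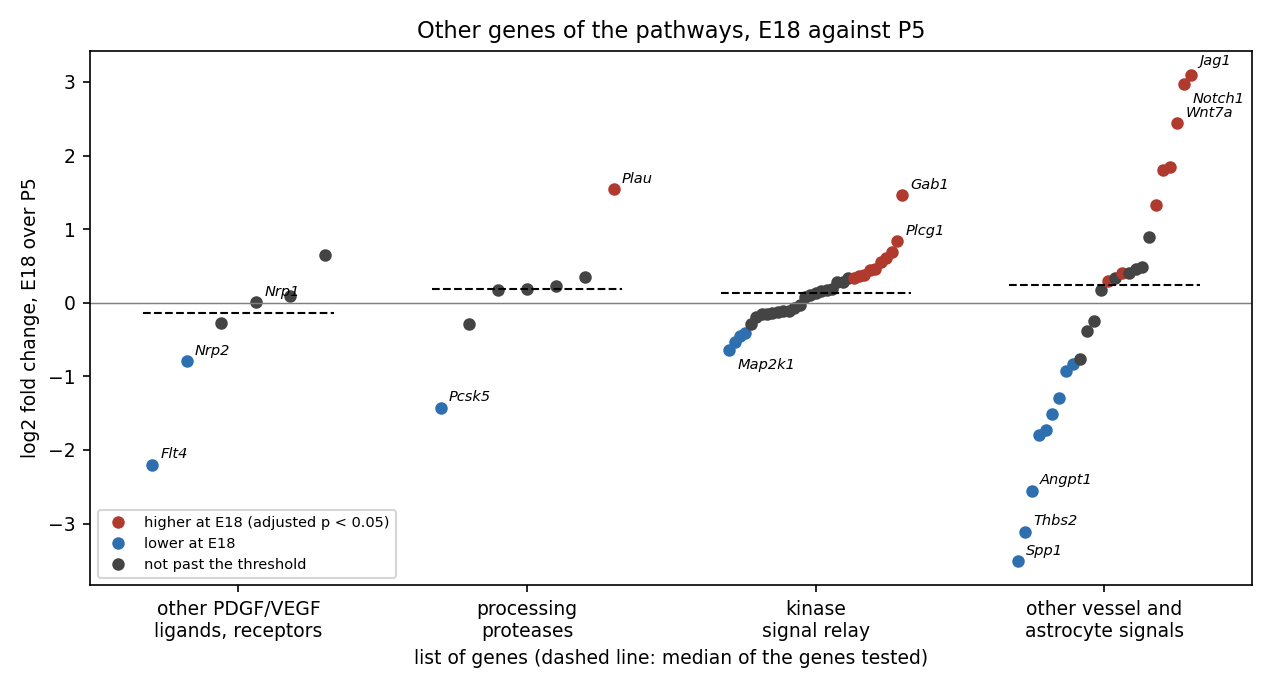
Log2 fold change of E18 over P5 for each gene tested in 4 lists, with genes sorted by value inside a list; red and blue points are past an adjusted p of 0.05, and dashed lines are medians. The signal relay holds 10 red and 4 blue points, from -0.65 (Map2k1) to 1.46 (Gab1), while the other vessel and astrocyte signals reach from -3.51 to 3.09.

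Genes of the HIF pathway, which controls Vegfa by oxygen, were compared next. Of 9 factors and regulators tested, 4 rose and 0 fell at E18, with a median log2 fold change of 0.35. The 4 of 9 called are close to the 43.4% called among all genes, so their number is no result about the pathway. Hif1a, the oxygen-regulated subunit, was at 604, 661 and 657 CPM at E18 and at 545, 617 and 548 CPM at P5, with a log2 fold change of 0.17 (SE 0.09, adjusted p = 0.150). Hif1a was abundant at both ages and its libraries overlapped, while Epas1, the subunit known in endothelium and astrocytes, was at no more than 0.241 CPM (adjusted p = 0.967). The partner subunit Arnt was higher at E18, at 27.4 ± 1.37 CPM against 20.0 ± 0.719 CPM (log2 fold change 0.45, SE 0.10, adjusted p = 0.00694), and Arnt2, its neuronal relative, was at 178 ± 7.86 and 139 ± 31.1 CPM (adjusted p = 0.0778). Of the enzymes that mark or silence HIF in oxygen, Egln1 (log2 fold change 0.60, adjusted p = 0.00319), Egln2 (0.46, adjusted p = 0.0249) and Hif1an (0.40, adjusted p = 0.0140) were higher at E18. Vhl, which sends HIF to degradation, had a log2 fold change of 0.33 (adjusted p = 0.0945) and Egln3 one of 0.26 (adjusted p = 0.609). Without E18 replicate 3 or P5 replicate 6, 2 of the genes were called in place of 4: the adjusted p of Egln2 was 0.0542 and 0.0765 and that of Hif1an 0.0735 and 0.0542. Egln2 also missed the threshold without E18 replicate 1, E18 replicate 4 or P5 replicate 9, at 0.0580, 0.0805 and 0.0706, and without P5 replicate 8 Arnt2 and Vhl passed it, at 0.00126 and 0.00306.

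Genes known to respond to low oxygen were mostly higher at E18, as Vegfa was. Of 20 such genes other than the members, 15 rose, 1 fell and 4 did not pass the test, with a median log2 fold change of 0.87, while 20.8% of all genes tested rose and 22.5% fell. This list, like the other lists, was chosen with earlier results of these data known, so its counts are given as a description. Hk2, a hexokinase of the first step of glycolysis, was at 8.99, 8.44 and 7.25 CPM at E18 and at 1.71, 2.31 and 2.65 CPM at P5. Its ages were far apart, with a log2 fold change of 1.89 (SE 0.21, adjusted p = 0.000399). Slc2a1, the glucose transporter GLUT1, was at 45.1, 31.2 and 33.6 CPM at E18 and at 8.09, 6.89 and 15.7 CPM at P5 (log2 fold change 1.84, SE 0.30, adjusted p = 0.00195). Pfkl, a phosphofructokinase, was higher by a log2 fold change of 1.48 (SE 0.11, adjusted p = 0.000127), and it is also among the 5 genes most like Vegfa. These largest rises, of Hk2, Slc2a1 and Pfkl, were all in genes of glucose use. The 4 genes that did not pass were Bnip3, Ndrg1, Adm and Aldoa, with log2 fold changes of 0.26, 0.35, 0.68 and 0.10. Their adjusted p was 0.341, 0.133, 0.183 and 0.668. The part of oxygen in the levels of Vegfa and of the listed genes was not tested. The gene that fell was Higd1a, a mitochondrial protein induced by hypoxia, at 53.7 ± 0.948 CPM at E18 and 74.9 ± 19.2 CPM at P5 (log2 fold change -0.48, SE 0.16, adjusted p = 0.0432). It missed the threshold on leaving out any library other than P5 replicate 8, with adjusted p of 0.0788 to 0.112 and a log2 fold change of -0.26 without P5 replicate 9, and with upper-quartile normalization, at 0.0526.

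**Figure D5:**
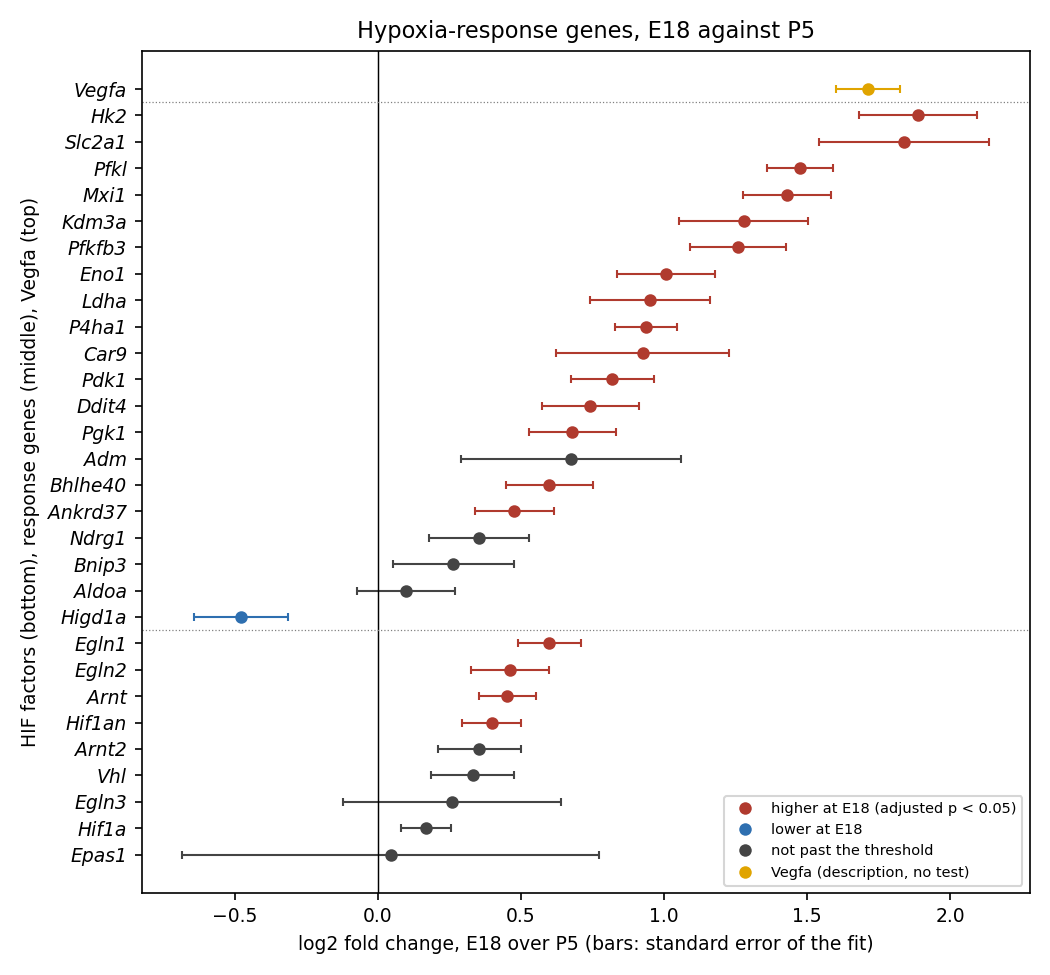
Log2 fold change of E18 over P5 with its standard error for Vegfa (top, a description), 20 hypoxia-response genes (middle) and 9 HIF factors and regulators (bottom). Among the response genes 15 are red (higher at E18, adjusted p under 0.05) and 1, Higd1a, is blue.

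Other secreted signals and receptors of retinal vessels and astrocytes split in both directions. Of 29 in the table, 26 were tested, 8 rose, 9 fell and 9 did not pass the test, with a median log2 fold change of 0.24, while 20.8% of all genes tested rose and 22.5% fell. Angpt1, a ligand of the endothelial receptor Tek, was at 1.28, 1.38 and 0.983 CPM at E18 and at 6.6, 5.74 and 9.08 CPM at P5. It was lower in all E18 libraries, as Pdgfa and Pdgfb were, with a log2 fold change of -2.55 (SE 0.24, adjusted p = 0.000251). Thbs2, a matrix protein that restrains vessel growth, was lower by -3.11 (SE 0.41, adjusted p = 0.000885) and Spp1, osteopontin, by -3.51 (SE 0.64, adjusted p = 0.00315), the latter at 0.0627 ± 0.0439 CPM at E18 and 0.731 ± 0.487 CPM at P5. The endothelial sum, of which Tek of this same list is a part, was lower at E18 as well, and so was the pericyte gene Rgs5. The sum of the pericyte and smooth muscle markers overlapped between the ages, at 4.18 to 7.32 CPM at E18 and 5.49 to 7.26 CPM at P5. Of that list Notch3 was higher at E18. The part of endothelial cells and pericytes in these falls was not tested.

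The 3 largest rises at E18 in that list were those of the Notch ligand Jag1, the receptor Notch1 and the ligand Wnt7a. Jag1 was at 8.10, 10.5 and 2.31 CPM at E18 and at 1.12, 0.802 and 0.532 CPM at P5 (log2 fold change 3.09, SE 0.53, adjusted p = 0.00252). Notch1 was at 26.0, 6.17 and 1.59 CPM at E18 and at 1.32 to 1.51 CPM at P5 (log2 fold change 2.97, SE 0.82, adjusted p = 0.0188). Wnt7a was at 0.567, 1.03 and 0.0884 CPM at E18 and at 0.0425 to 0.163 CPM at P5 (log2 fold change 2.44, SE 0.80, adjusted p = 0.0363). All 3 were highest in E18 replicates 1 and 3, as Kdr was, where the amacrine, horizontal, progenitor and dividing-cell markers were also high, and the part of those cells was not tested. Notch1 had a log2 fold change of 1.45 without E18 replicate 1 and an adjusted p of 0.0773, 0.0516 and 0.0636 without P5 replicates 6, 8 and 9. Wnt7a had an adjusted p of 0.0657, 0.159, 0.112 and 0.113 without E18 replicate 1, E18 replicate 3, P5 replicate 6 and P5 replicate 9. The number of genes called was 11 without E18 replicate 3 or P5 replicate 6, in place of 17.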

How the data were processed

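RGCs were purified by immunopanning from C57BL/6 mice at E18 and P5, and 3 samples at each age were grouped by their labels. The authors depleted ribosomal RNA, although the labels name polyA RNA, used STAR for alignment to mm10 and HT-seq to count reads of RefSeq genes. They deposited raw counts per gene. A second set of deposited columns, a signal that the authors scaled for library size, was not used. Columns of the authors' own comparison, log2 fold changes, p-values and a rank score, were deposited as well and were not used. How strand and multi-mapping reads were handled is not stated.

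The raw counts were scaled by TMM, and edgeR 4.0.16 (R 4.3.3, limma 3.58.1) gave quasi-likelihood tests for 16449 of 24060 genes after filterByExpr. Adjusted p-values (Benjamini-Hochberg, over all genes tested) under 0.05 were called. The script was tested on simulated data. CPM uses TMM library sizes, ± is the SD over 3 libraries, and standard errors belong to the fitted model. Replicates of one age differed by 30.5 to 141 in chi-square per degree of freedom, more than counting error alone gives. This cannot tell whether libraries shared a preparation of cells. The value was taken over many genes together, so it does not show what limits the precision of any single gene. Levels per length used the union of GENCODE vM21 exons, matched by symbol, although reads were counted on RefSeq models.

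The members and all gene lists were chosen with earlier results of these data known. The genes named are the members, up to 3 called genes with the largest rise and fall in each list, all measured genes of lists of at most 9, the 5 most like Pdgfa and Vegfa, and the most abundant marker where a result turns on a list. The markers Thy1, Isl1, Nefl, Gap43, Stmn2, Gfap, Pax2, Aldh1l1, S100b, Olig1, Olig2, C1ql1, Sox10, Cdh5, Cldn5, Tek, Pecam1, Esam, Rgs5, Abcc9, Vtn, Glul, Dkk3, Vim and Rlbp1 were singled out after their values were seen. So were the hypoxia-response genes that were not called, and calls gained without a library. The lists of markers covered RGCs, amacrine and horizontal cells, progenitors and dividing cells, astrocytes, oligodendrocyte precursors, pericytes and endothelial cells, and also Müller glia (470 to 598 CPM in sum), photoreceptors (3.79 to 21.8 CPM, highest in E18 replicate 1) and microglia (1.74 to 2.86 CPM). Nearly all of the Müller glia sum was Glul, Dkk3 and Vim, and Rlbp1 of that list was at no more than 4.22 CPM. Alternatives were DESeq2 1.42.0, upper-quartile normalization, the likelihood ratio test, no filter on low counts, and the omission of each library.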

Additional observations from a re-analysis of the deposited data

How the results depend on the processing

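Pdgfc, Pdgfrb and Flt1, with 4 to 63 reads per library, changed sign when 1 library was left out. The log2 fold change of Pdgfc was -0.74 and that of Pdgfrb -0.18 without E18 replicate 1, and that of Flt1 was 0.29 without E18 replicate 3. Without E18 replicates 1 and 3, Pdgfc was at -0.97 and Pdgfrb at -0.44. Those values rest on E18 replicate 4 alone at that age, with 12 reads of Pdgfc and 11 of Pdgfrb. With each library left out in turn, Pdgfc ranged from -0.74 to 0.59, Pdgfrb from -0.18 to 1.84 and Flt1 from -1.29 to 0.29. The cause was not tested. The other 7 members kept their direction under every setting tried. Leaving out each library in turn, the genes called numbered 4575 to 8796 in all, 5 to 20 in the signal relay, 2 to 6 among HIF factors and 11 to 19 among vessel and astrocyte signals, against 7135, 14, 4 and 17 with all libraries, the lowest without E18 replicate 3 (also without P5 replicate 6 in the last 2 lists) and the highest without P5 replicate 8. The hypoxia-response list kept 13 to 16 calls, the proteases 2 to 3 and the other PDGF and VEGF genes 2 under all settings. DESeq2 called 7682 genes, upper-quartile normalization 7169, the likelihood ratio test 7454 and no filter 7147. No paired analysis was possible because no replicate number is shared between the ages.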
